A study of Drosophila melanogaster with 18 samples.

Results

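The comparison described here set 3 libraries of DL1 cells labelled IntS6 dsRNA directly against 3 libraries labelled IntS4 dsRNA, over all genes outside ribosomal RNA. These are 6 of the 18 libraries of the series, and 17615 of its 17753 gene entries. Of those 17615 genes, 14548 had at least 1 count in the 18 libraries and 8666 passed the filter on low counts and were tested. DL1 is a haemocyte-like cell line of Drosophila melanogaster, labelled wild type. Cells took up 2 µg of double-stranded RNA (dsRNA) from the medium, a route to RNA interference in fly lines, and RNA was taken after 3 days of growth. The libraries compared here are labelled IntS6, IntS4, mts, Pp2A-29B or B-gal, where B-gal is a control dsRNA against a bacterial gene. The series also holds Mock libraries without dsRNA, which entered the filter, the shared fit and the mean levels over 18 libraries. Each group has 1 library in each of the replicate sets A, B and C. The labels call the sets biological and do not say how the cultures were kept apart, so p-values measure only the spread between these libraries. All cells come from 1 cultured line.

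Integrator is a complex that travels with RNA polymerase II and cuts nascent RNA. IntS4 joins the nuclease pair IntS9 and IntS11 in its cleavage module. That module makes the 3′ ends of the spliceosome's small nuclear RNAs (snRNAs) that RNA polymerase II transcribes, which leaves out U6. The module also ends transcription early at many protein-coding genes. IntS6 belongs to the module that brings protein phosphatase 2A (PP2A) to the complex, where it removes phosphates from the polymerase and its elongation factors. The direct comparison asks which transcripts separate the phosphatase-linked subunit from the cleavage-module subunit, and the mts (PP2A catalytic subunit) and Pp2A-29B (PP2A scaffold subunit) libraries are given beside it.

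The targeted genes went against their labels in both groups. IntS6 (chromosome X, 5738663 to 5747254, minus strand, in the BDGP6 annotation that gives all positions here) had 150, 53.9 and 47.5 CPM (counts scaled to the library total) in sets A, B and C of the libraries labelled IntS6 dsRNA. It had 46.4, 43.2 and 54.0 CPM in those labelled IntS4 dsRNA, and 33.3, 29.4 and 26.8 CPM with B-gal dsRNA. The groups overlapped, and no library labelled IntS6 dsRNA lay below a B-gal library. The log2 fold change, libraries labelled IntS6 over libraries labelled IntS4, was 0.81 (SE 0.28, edgeR adjusted p = 0.11). It passed the threshold with DESeq2, without the low-count filter, and without IntS6 replicate B (1.05) or C (1.10), and was 0.08 without IntS6 replicate A. IntS4 (X, 8555239 to 8558781, minus strand) had 13.8, 11.1 and 13.2 CPM in the IntS6-labelled libraries, against 227, 43.1 and 26.3 CPM in the IntS4-labelled libraries, and 12.2, 12.3 and 11.9 CPM with B-gal dsRNA. The log2 difference was -2.95 (SE 0.51, adjusted p = 0.00087), or -1.45 when IntS4 replicate A was left out. Counts over the whole gene thus show no loss of either transcript in the libraries labelled with its name. Whether these counts include reads of the dsRNA itself was not tested. The extent of either depletion is not known from them, and both groups are called by their labels below. The transcripts of the PP2A subunits lay close together, with mts at 101, 122 and 94.1 CPM in the IntS6-labelled libraries against 102, 107 and 106 CPM in the IntS4-labelled libraries (log2 0.00, 95% interval -0.29 to 0.30). Pp2A-29B had a log2 fold change of 0.04 (-0.12 to 0.21). In the libraries labelled with their own dsRNA, mts (log2 -1.23 against B-gal dsRNA) and Pp2A-29B (-1.78) were lower than in the control.

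The 6 libraries held 13445318 to 17861270 counts with the IntS6 label and 13993767 to 19298644 with the IntS4 label, and ribosomal RNA took 65.7 to 69.5% of them with the IntS6 label and 65.1 to 70.8% with the IntS4 label. That left 4494406 to 5438936 counts for all other genes in the IntS6-labelled and 4370742 to 6325688 in the IntS4-labelled libraries. Over 6079 genes whose mean log2 CPM reached 2, replicate libraries correlated at 0.98 to 0.989 within the IntS6-labelled group and at 0.983 to 0.993 within the IntS4-labelled group. Libraries of different groups correlated at 0.966 to 0.977. The first principal component of the 6 libraries held 52.2% of the variance and separated the labels, with the IntS6-labelled libraries between -14.4 and -11.2 and the IntS4-labelled between 11 and 14.6. No library was identical to another. Plasmatocyte markers define the macrophage-like haemocytes, and 10 of 11 were above 1 CPM in all 6 libraries, while the scavenger receptor gene Sr-CI was at 0.407 to 0.79 CPM in the IntS6-labelled and 0.197 to 0.365 CPM in the IntS4-labelled libraries. Of the 11, 10 were called above B-gal dsRNA in the IntS6-labelled and 9 in the IntS4-labelled libraries, beside 2293 and 2344 of 8666 tested genes. In B-gal libraries NimC1 was at 0.114 to 0.501 CPM and vkg at 0.568 to 0.614 CPM. Hml had 470 to 768 CPM in the IntS6-labelled and 469 to 803 CPM in the IntS4-labelled libraries, but 2.27 to 3.78 CPM in B-gal libraries. Hml is also on the list of reported Integrator targets. eater, for a phagocytic receptor, had 49.4 to 51.4 CPM in the IntS6-labelled and 40.1 to 47.8 CPM in the IntS4-labelled libraries, with 36.3 to 48.3 CPM in B-gal libraries. Of 31 markers of neurons, germline, muscle and fat body, 19 were under 1 CPM in all 6 libraries. Those above it included the neuronal genes futsch (28.9 to 42.8 CPM in the IntS6-labelled and 38 to 49 CPM in the IntS4-labelled libraries) and cac (18.3 to 21.2 CPM in the IntS6-labelled and 20.1 to 21.8 CPM in the IntS4-labelled libraries). In B-gal libraries futsch was at 2.59 to 3.39 CPM and cac at 23.3 to 32.4 CPM. The germline genes aub (24 to 31.1 CPM in the IntS6-labelled and 18.8 to 19.6 CPM in the IntS4-labelled libraries) and AGO3 (21.4 to 30.8 CPM in the IntS6-labelled and 23.5 to 30.6 CPM in the IntS4-labelled libraries) were present as well.

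The IntS6-labelled and IntS4-labelled libraries differed at 569 of 8666 genes (6.57%), called at an adjusted p under 0.05. In the IntS6-labelled libraries 220 genes were higher (2.54%) and 349 lower (4.03%). The lower genes moved further: 171 were at least 2-fold, 58 at least 4-fold and 27 at least 8-fold lower, while 79, 8 and 1 were that much higher. The median size of the log2 fold change was 0.76 among higher and 0.98 among lower genes, and the median over all tested genes was -0.007. All 3 IntS6-labelled libraries lay above all 3 IntS4-labelled libraries at 995 tested genes (11.5%) and below them at 1155 (13.3%). The libraries did not overlap at 219 of the 220 higher and all 349 lower genes, as nearly follows from the test. The count of higher genes rests in part on single libraries, and was 131 without IntS6 replicate A, 138 without IntS4 replicate A and 113 without IntS4 replicate B. In bulk RNA, fewer cells of a type and less RNA per cell cannot be told apart.

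**Figure D1:**
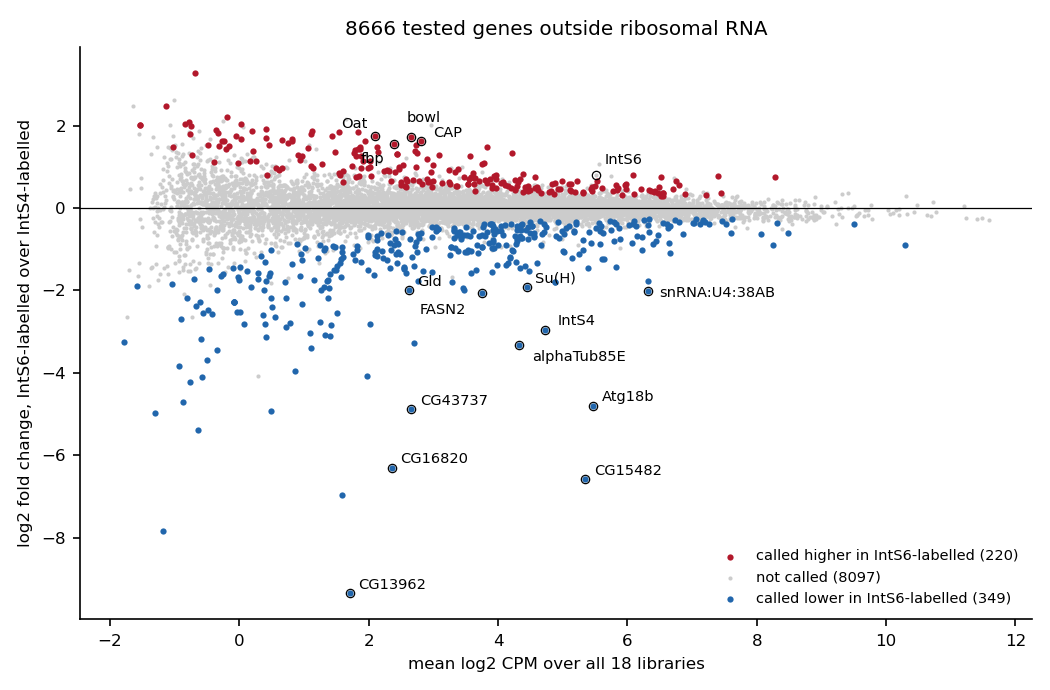
Log2 fold change of the IntS6-labelled over the IntS4-labelled libraries (vertical axis) against the mean log2 CPM over all 18 libraries (horizontal axis) for 8666 genes, 1 point each. Red points are the 220 genes called higher, blue points the 349 called lower and grey points the rest, and the 4 largest decreases at a horizontal position of 2 or above (CG15482, CG16820, CG43737 and Atg18b) lie farther from 0 than any increase there. The value of CG13962 rests on 1 count in the IntS6-labelled libraries.

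Several of the largest differences stood at genes that hold or adjoin snRNA genes, and these were lower in the IntS6-labelled libraries. CG15482 (chromosome 2L, 13210773 to 13211814, minus strand) starts 111 bases beyond the 3′ end of the U2 snRNA gene snRNA:U2:34ABa on the same strand. It had 3.03, 2.78 and 1.45 CPM in the IntS6-labelled libraries, against 252, 238 and 216 CPM in the IntS4-labelled libraries, and 0.478, 0.397 and 0.111 CPM with B-gal dsRNA. The log2 fold change was -6.59 (SE 0.38, adjusted p = 2e-09), so the IntS4-labelled libraries stood far above all others. Atg18b (2L, 21212322 to 21220572, minus strand), whose protein is of the WIPI family that acts in autophagy, holds snRNA:U4:39B within its span on the same strand. It had 8.41, 8.54 and 7.77 CPM in the IntS6-labelled libraries, against 232, 236 and 218 CPM in the IntS4-labelled libraries (log2 -4.79, SE 0.2, adjusted p = 3.1e-11). B-gal libraries held 3.07, 2.1 and 2.06 CPM. Reads of an snRNA gene and of a gene around it on the same strand can be divided between the entries, which was not tested. Counts of snRNA:U4:39B itself were 21.4 to 36.7 CPM in the IntS6-labelled and 23.7 to 27.3 CPM in the IntS4-labelled libraries (log2 0.05, not called).

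CG16820 and CG13962, also past the ends of snRNA genes, and FASN2, which holds a pair of them, were lower too. CG16820 (2L, 13246232 to 13250189, plus strand) begins 1258 bases past snRNA:U5:34A. It had 0.56, 0.407 and 0.0658 CPM in the IntS6-labelled libraries and 29, 30.5 and 26 CPM in the IntS4-labelled libraries (log2 -6.30, SE 0.35, adjusted p = 1.4e-09). CG13962 (2L, 19813704 to 19814532, minus strand) lies 1082 bases past snRNA:U2:38ABa. It had 1 count in the 3 IntS6-labelled libraries together and 914 in the IntS4-labelled libraries, where it stood at 19.1, 19.3 and 17.8 CPM. The ratio of normalised counts, IntS4-labelled over IntS6-labelled, was 896 (exact 95% counting interval 160 to 35400), and no count fell in the B-gal libraries. FASN2 (2L, 3043947 to 3056143, plus strand), a fatty acid synthase gene that holds snRNA:LU and snRNA:U5:23D, had 16.9, 12.9 and 9.74 CPM in the IntS6-labelled libraries against 62.9, 66.4 and 37.5 CPM in the IntS4-labelled libraries. The difference was -2.07 on the log2 scale (SE 0.32, adjusted p = 0.00028), and with B-gal dsRNA it had 0.612 to 1.09 CPM.

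Of 13 tested genes that overlap an snRNA gene on its strand or lie within 3000 bases past its 3′ end, 5 were thus lower and 1 higher, beside 4.03% and 2.54% of all tested genes. CG13962 had at most 1 count and CG16820 at most 16 in any library outside the IntS4-labelled group, through which they passed the filter. Neither could well be called higher, so the count of 5 is set in part by the filter. The median log2 fold change of the 13 was -0.16, since the other 7 differed little. These were Eip63E (0.01), cno (-0.02), sick (0.16), Esyt2 (-0.15), ND-B17 (-0.25), CG1142 (-0.16) and scaRNA:MeU5-C46 (-0.13), none of them called. Among these, Esyt2 holds snRNA:U6:96Aa, a U6 gene and so outside the snRNAs whose ends the cleavage module makes. CG1142 and scaRNA:MeU5-C46 overlap on the same strand and both lie past snRNA:7SKa, which is not an snRNA of the spliceosome. The exception above 0 was CG34355 (3R, 23803859 to 23859167, plus strand), which holds 2 U1 genes. It had 8.29, 5.9 and 4.87 CPM in the IntS6-labelled libraries and 2.04, 3.13 and 2.75 CPM in the IntS4-labelled libraries (log2 1.25, SE 0.3, adjusted p = 0.014). CG34355 lost its call without IntS6 replicate A or IntS4 replicate A, with adjusted p up to 0.12. With a window of 10000 bases, chosen after the data were seen, 19 genes were tested and 6 were lower and 1 higher. The addition was the long non-coding RNA lncRNA:CR45348, 3441 bases past snRNA:U1:21D. It had 0 counts in the IntS6-labelled and 87 in the IntS4-labelled libraries, through which it too passed the filter. Against 3 counts over the group, it was at least 28.4-fold higher in the IntS4-labelled libraries.

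**Figure D2:**
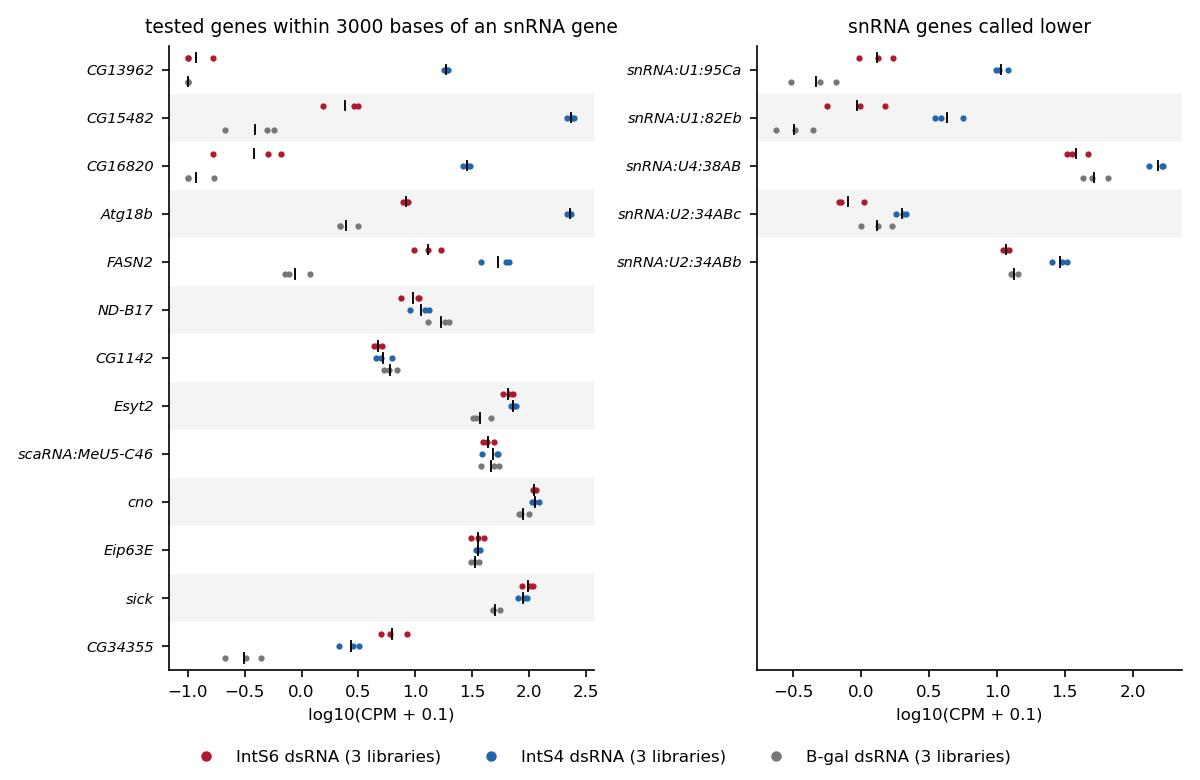
Levels as log10(CPM + 0.1) in each library, with red for IntS6, blue for IntS4 and grey for B-gal dsRNA, and a black bar at the mean of the 3 log values. In the left panel (13 tested genes within 3000 bases of an snRNA gene) the 5 genes at the top are lower in IntS6-labelled libraries and most of the others coincide. The right panel shows the 5 snRNA genes called lower.

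Entries of snRNA genes were lower too where they differed. Of 21 tested, 5 were lower and 0 higher in the IntS6-labelled libraries, beside 4.03% and 2.54% of all tested genes, with a median of -0.59. The count lower was 2 to 7 over 14 alternative settings, with 2 where genes needed a mean log2 CPM of 2, and without the filter 1 was higher. snRNA:U4:38AB (2L, 19810734 to 19810875) had 35.5, 46.4 and 32.8 CPM in the IntS6-labelled libraries, against 166, 165 and 131 CPM in the IntS4-labelled libraries and 49.7, 65.1 and 42.7 CPM with B-gal dsRNA (log2 -2.01, SE 0.24, adjusted p = 2.5e-05). snRNA:U2:34ABb (2L, 13215839 to 13216030) had 10.9, 12.2 and 11.6 CPM in the IntS6-labelled and 29.9, 32.9 and 25.2 CPM in the IntS4-labelled libraries (log2 -1.35, SE 0.12). The IntS6-labelled values of both lay near or below the B-gal values, and the IntS4-labelled values above them. snRNA:U1:95Ca (-3.10), snRNA:U1:82Eb (-2.19) and snRNA:U2:34ABc (-1.37) were also lower. Entries without a call included snRNA:U2:34ABa (-0.16, SE 0.14), snRNA:U4:39B (0.05, SE 0.28) and snRNA:7SKa (0.08, SE 0.13), the RNA that holds the elongation factor P-TEFb in reserve. Copies of 1 snRNA are nearly identical and share reads, so single entries are uncertain. CG9426 (2L, 13216290 to 13219923, minus strand), whose end lies on the other strand just past snRNA:U2:34ABb, moved the other way. It had 21.1, 20.2 and 19.6 CPM in the IntS6-labelled libraries, against 7.95, 7.63 and 8.52 CPM in the IntS4-labelled libraries and 17.7, 17.5 and 21.2 CPM with B-gal dsRNA (log2 1.34, SE 0.10, adjusted p = 9.8e-08). The IntS4-labelled libraries were the low ones for this gene.

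Away from snRNA genes, the lowest genes were of mixed kinds, most of them nearly silent with B-gal dsRNA. The rule for these genes asks for a call, a mean log2 CPM over all 18 libraries that reaches 2 and library ranges that do not overlap, and takes the 15 lowest and 15 highest, so it fixes their direction. CG43737 (X, 15175441 to 15189931) had 1.63, 0.881 and 1.05 CPM in the IntS6-labelled libraries and 40.4, 40.2 and 25.9 CPM in the IntS4-labelled libraries (log2 -4.87, SE 0.27, adjusted p = 1.4e-09). The alpha-tubulin gene alphaTub85E (3R, 9731221 to 9733250) had 9.36, 8.2 and 8.49 CPM in the IntS6-labelled libraries and 79.8, 93.2 and 86.8 CPM in the IntS4-labelled libraries (log2 -3.31, SE 0.45, adjusted p = 8.3e-05). It had 0.0568 to 0.205 CPM with B-gal dsRNA, so both labelled groups stood above the control and the IntS4-labelled group much further. Of 7 tested tubulin genes it was the only one called (14.3%, beside 6.57% of all tested genes). The zona pellucida domain gene tyn (-3.27, SE 0.15) and CG8568 (-2.80, SE 0.21) followed the same order of groups.

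The rest of the 15 lowest included genes of enzymes and of a transcription factor. Gld (3R, 7252063 to 7265703), for glucose dehydrogenase, had 10.1, 6.1 and 4.87 CPM in the IntS6-labelled libraries and 32.3, 30 and 22.3 CPM in the IntS4-labelled libraries (log2 -1.99, SE 0.26, adjusted p = 6.6e-05). The thioredoxin gene TrxT was at -1.94 (SE 0.21) and the neprilysin gene Nep1, for a membrane peptidase, at -1.79 (SE 0.19). Su(H) (2L, 15039488 to 15043334), the DNA-binding factor of the Notch pathway, had 25.4, 18.3 and 17.2 CPM in the IntS6-labelled libraries, against 83.0, 76.1 and 71.2 CPM in the IntS4-labelled libraries and 7.78, 8.17 and 8.46 CPM with B-gal dsRNA. The log2 difference was -1.91 (SE 0.14, adjusted p = 5.7e-08). CG33494 met the rule's mean level through the mts libraries (29.5 to 55.7 CPM) and the Pp2A-29B libraries (19.7 to 26.7 CPM), and had 0.392, 0.746 and 0.592 CPM in the IntS6-labelled against 0.876, 2.98 and 2.75 CPM in the IntS4-labelled libraries (-1.99, SE 0.45, adjusted p = 0.0084). It lost its call without IntS6 replicate A or IntS4 replicate B, with adjusted p up to 0.071.

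The highest genes in the IntS6-labelled libraries differed by less. Oat (3L, 19647280 to 19649851), for ornithine aminotransferase, had 6.28, 5.29 and 8.89 CPM in the IntS6-labelled libraries and 2.19, 1.97 and 1.97 CPM in the IntS4-labelled libraries (log2 1.74, SE 0.31, adjusted p = 0.0012). The zinc finger gene bowl (2L, 3771700 to 3784121) had 6.17, 6.64 and 4.15 CPM in the IntS6-labelled and 1.75, 2.17 and 1.11 CPM in the IntS4-labelled libraries (log2 1.73, SE 0.29, adjusted p = 0.0007). B-gal libraries overlapped with or lay below the IntS4-labelled libraries for both genes. CAP (2R, 10269016 to 10307024), for an adaptor protein of cell adhesion sites, had 19.4, 17.6 and 19.5 CPM in the IntS6-labelled and 6.13, 5.36 and 7.02 CPM in the IntS4-labelled libraries (log2 1.62, SE 0.20, adjusted p = 4.3e-05). fbp (2L, 19761587 to 19764136), for the gluconeogenic enzyme fructose-1,6-bisphosphatase, had 16.5, 13.4 and 18.3 CPM in the IntS6-labelled and 5.69, 3.99 and 6.82 CPM in the IntS4-labelled libraries. The log2 difference was 1.56 (SE 0.18, adjusted p = 2e-05), against 0.511 to 0.682 CPM with B-gal dsRNA.

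Further high genes were sns and tutl, both for membrane proteins of the immunoglobulin family. sns (2R, 8798489 to 8856091), known from myoblast fusion, had 17.5, 18.2 and 18.6 CPM in the IntS6-labelled libraries and 6.42, 5.96 and 6.95 CPM in the IntS4-labelled libraries (log2 1.49, SE 0.15, adjusted p = 3.5e-06), with 0.0682 to 0.17 CPM in B-gal libraries. tutl (2L, 4283148 to 4323781) had 33.6, 28.9 and 20.7 CPM in the IntS6-labelled libraries, against 11.3, 10.1 and 8.39 CPM in the IntS4-labelled libraries and 30.6, 27.0 and 14.6 CPM with B-gal dsRNA (log2 1.49, SE 0.33, adjusted p = 0.0075). For tutl the IntS4-labelled libraries were the low ones and the IntS6-labelled libraries overlapped with the control. The lysosomal transporter gene Cln7 (1.53, SE 0.20), CG3770 (1.38, SE 0.16), CG11400 (1.37, SE 0.31) and CG8547 (1.26, SE 0.23) passed the same rule. Kal1 (1.29, SE 0.35, adjusted p = 0.03) was called with all 6 libraries and without IntS6 replicate C, and with adjusted p up to 0.12 not with DESeq2 or without any other library. CG5001 (1.33) lost its call without IntS6 replicate A or B or IntS4 replicate A (adjusted p up to 0.085), and CG11400 without IntS4 replicate B (up to 0.08). The kinase genes KP78a and KP78b share their span and held identical counts (1.31 each), so they are 1 measurement.

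**Figure D3:**
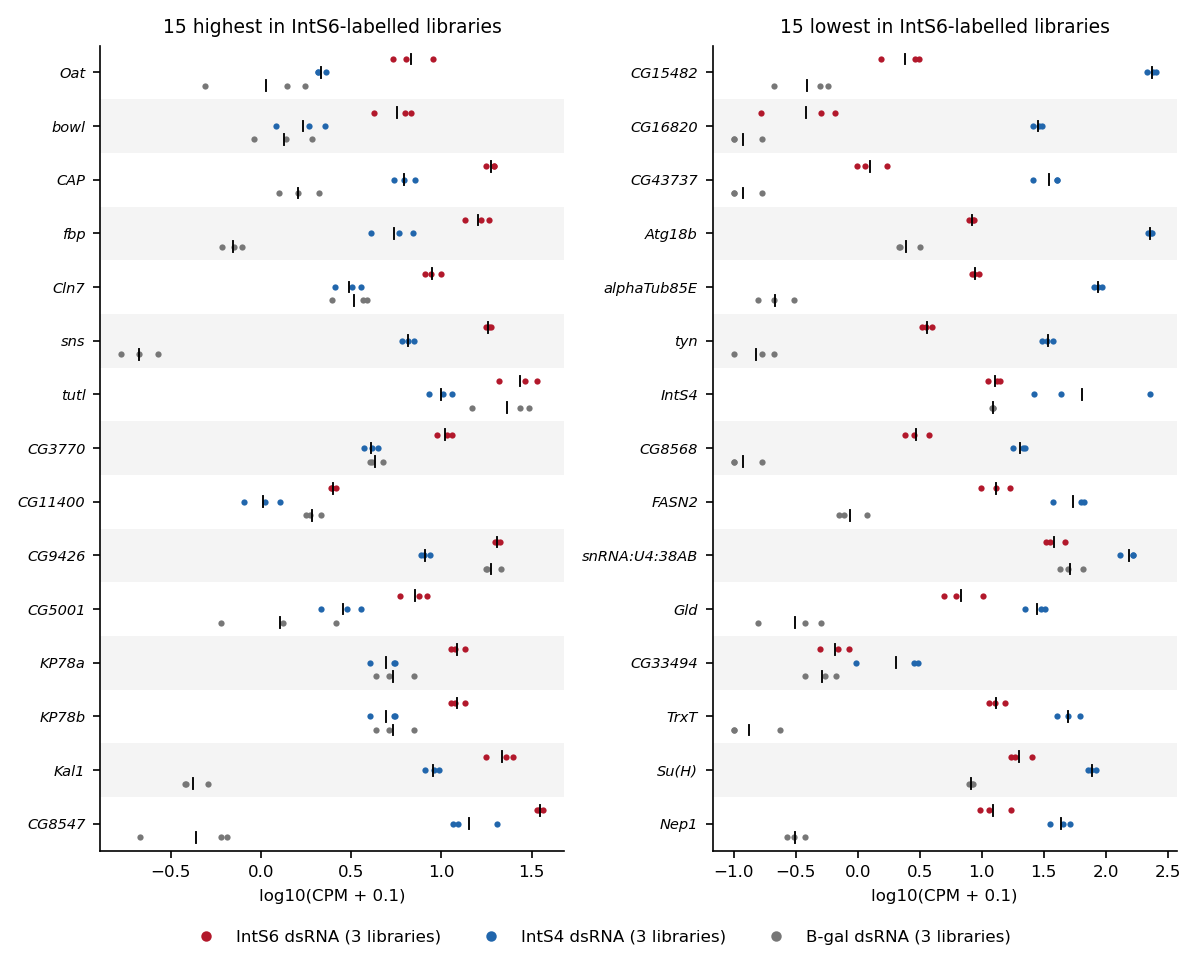
Levels as log10(CPM + 0.1) of the 15 highest (left) and 15 lowest (right) genes by the naming rule in each library, with red for IntS6, blue for IntS4 and grey for B-gal dsRNA, and a black bar at the mean of the 3 log values. Grey points lie to the left of the other colours for most of the genes on the right, while for Cln7, tutl, CG3770, CG11400, CG9426 and KP78a they lie level with or above the blue points.

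By their means, most called genes stood above the control in both labelled groups. The mean CPM of B-gal libraries was below both group means for 135 (61.4%) of the higher and 279 (79.9%) of the lower genes, beside 43.0% of all tested genes. It lay between them for 50 (22.7%) and 57 (16.3%), and above both for 35 (15.9%) and 13 (3.72%), beside 44.5% of all tested genes. The B-gal mean was under 1 CPM for 27.3% of the higher and 43.8% of the lower genes, and for 15.4% of all tested. A gene that is nearly silent in the control passes the filter through a group that raises it, so these shares are set in part by the filter.

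Genes reported elsewhere as attenuated by Integrator were lower in the IntS6-labelled libraries where they differed, in 4 of 10 tested and higher in 0, beside 4.03% and 2.54% of all tested genes, with a median of -0.29. The list was drawn up with earlier results of these data known, and 2 were lower without IntS6 replicate B, IntS4 replicate A or IntS4 replicate B. Pepck1 (2R, 18536767 to 18539416), for the gluconeogenic enzyme phosphoenolpyruvate carboxykinase, had 36.5, 30.1 and 48.6 CPM in the IntS6-labelled libraries, against 131, 128 and 139 CPM in the IntS4-labelled libraries and at most 0.273 CPM with B-gal dsRNA. The log2 difference was -1.79 (SE 0.17, adjusted p = 1.8e-06), and CG45087, which overlaps it, held identical counts. Pepck1 and fbp act in 1 pathway and moved in opposite directions between the labelled groups. ana (2R, 9062295 to 9077554), for a secreted glycoprotein, had 37.9, 25.2 and 37.7 CPM in the IntS6-labelled libraries and 89.6, 76.9 and 99.5 CPM in the IntS4-labelled libraries (log2 -1.40, SE 0.16, adjusted p = 1.6e-05). Sirup (-0.64, SE 0.17, adjusted p = 0.025) and the ERK phosphatase gene Mkp3 (-0.35, SE 0.10, adjusted p = 0.037) differed by less. Over B-gal dsRNA, ana (log2 4.09) and Sirup (3.79) were raised in the IntS6-labelled libraries, and further in the IntS4-labelled (5.48 and 4.43). Mkp3 was not called against B-gal dsRNA in either group. Sirup lost its call without IntS6 replicate B or C or IntS4 replicate A or B (adjusted p up to 0.15). Mkp3 lost it without A or B of either group, without the filter and in the fit of only the 2 groups (up to 0.18). pst had 673, 668 and 640 CPM in the IntS6-labelled libraries and 761, 704 and 695 CPM in the IntS4-labelled libraries, and was not called (log2 -0.13, 95% interval -0.30 to 0.05). Hml (-0.02, interval -0.52 to 0.48), CG6847 (-0.28), CG8620 (-0.31) and Naam (-0.16) were not called either. MtnA, a metal-binding protein gene that varied between sets within each group (4.2, 3.73 and 45.9 CPM in the IntS6-labelled, 3.28, 3.23 and 35.1 CPM in the IntS4-labelled libraries), had an interval of -2.45 to 3.2.

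Transcripts of the complexes themselves differed little. Of 13 tested Integrator genes, IntS4 was the only one called (7.69%, beside 6.57% of all tested genes). The rest, outside the targeted IntS6, ran from -0.24 (asun) to 0.06 (IntS1), with the nuclease gene IntS11 at -0.19 (95% interval -0.51 to 0.12) and omd at -0.14 (-0.34 to 0.05). Of 12 tested PP2A core, regulatory and STRIPAK genes edgeR and DESeq2 called 0 and 1 was under an unadjusted p of 0.05, with Cka, a STRIPAK scaffold gene, farthest from 0 (-0.44, SE 0.17, adjusted p = 0.17). The count of 0 was the same in all 14 alternative settings, and at the background share a list of 12 can easily hold no call.

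**Figure D4:**
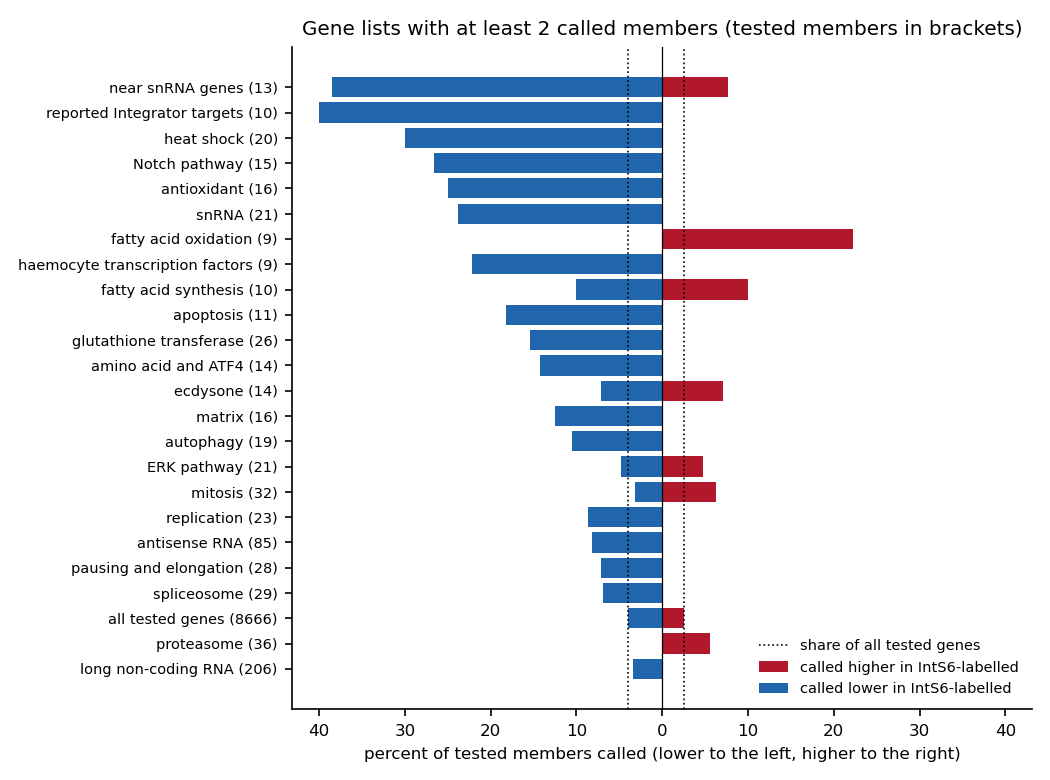
Percent of tested members called higher (red, to the right) and lower (blue, to the left) in the IntS6-labelled libraries, for lists with at least 2 called members and for all 8666 tested genes. Dotted lines mark 2.54% and 4.03%, the shares of all tested genes; the lists of reported Integrator targets, heat shock, Notch, antioxidant and snRNA genes have lower members alone.

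Stress genes were lower in the IntS6-labelled than in the IntS4-labelled libraries where they differed, though most were called above B-gal dsRNA in each group. Among 20 tested heat shock genes 6 were lower and 0 higher, beside 4.03% and 2.54% of all tested genes, with a median of -0.54. That count was 2 to 14 over the alternative settings: 2 or 3 without any 1 library other than IntS6 replicate C, 10 with only the 2 groups, 11 without the filter, and 12 or 14 with a replicate block. Hsc70-5 (2R, 14252598 to 14256192), the mitochondrial Hsp70, had 91.0, 82.9 and 85.3 CPM in the IntS6-labelled libraries, against 138, 140 and 126 CPM in the IntS4-labelled libraries and 142, 122 and 116 CPM with B-gal dsRNA (log2 -0.64, SE 0.09, adjusted p = 0.00011). Here the IntS4-labelled libraries lay level with the control. Hsp70Ba (-1.55), Hsp70Bb (-1.21) and Hsp70Bc (-1.19) are near-identical copies that share reads, and Hsp68 (-0.68) and the small heat shock gene Hsp27 (-0.40) were lower too. Hsp70Bb lost its call without IntS6 replicate A or B or IntS4 replicate A or C and with DESeq2 (adjusted p up to 0.13). Antioxidant genes were lower in 4 of 16 and higher in 0, with a median of -0.12. The peroxiredoxin gene Prx6c (2R, 10418718 to 10419761) had 30.6, 23.6 and 38.6 CPM in the IntS6-labelled libraries and 86.0, 85.9 and 82.8 CPM in the IntS4-labelled libraries (log2 -1.46, SE 0.20, adjusted p = 9.1e-05), and its neighbour Prx6b was at -1.20. Prx2 (-0.38) and Keap1 (-0.59), for the inhibitor of the antioxidant factor Nrf2, were lower as well. Glutathione transferase genes were lower in 4 of 26 (GstD5 -1.33, GstD9 -1.05, GstS1 -1.03 and GstT1 -0.52) and higher in 0, and in 2 without IntS6 replicate A or B or IntS4 replicate A. GstD5 lost its call without IntS6 replicate A or B or IntS4 replicate A or C (adjusted p up to 0.1). Against B-gal dsRNA, 14 heat shock, 12 antioxidant and 18 glutathione transferase genes were called higher in the IntS6-labelled libraries, and 2, 1 and 1 lower. In the IntS4-labelled libraries 14, 13 and 20 were called higher, and 1 of each list lower. Of all 8666 tested genes, 2293 and 2344 were called higher in the 2 groups.

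A few cell death and amino acid genes were lower, while the medians of both lists lay near 0. Their called shares were 18.2% and 14.3%, beside 6.57% of all tested genes. The death genes rpr (3.64, 1.56 and 2.76 CPM in the IntS6-labelled against 8.76, 7.43 and 8.26 CPM in the IntS4-labelled libraries, log2 -1.60, SE 0.38) and hid (-0.93, SE 0.23) were the called members among 11 tested apoptosis genes, whose median was -0.08. rpr was not called without IntS6 replicate B (adjusted p up to 0.07), nor hid without IntS6 replicate C or IntS4 replicate A or B (up to 0.094). The asparagine synthetase gene AsnS (3L, 21173118 to 21174973) had 63.3, 56.7 and 60.3 CPM in the IntS6-labelled libraries, against 142, 140 and 146 CPM in the IntS4-labelled libraries and 18.2 to 18.6 CPM with B-gal dsRNA (log2 -1.25, SE 0.08, adjusted p = 2.1e-08). AsnS overlaps chb, and the groups were far apart. Nmdmc, for a mitochondrial folate enzyme, had 8.63, 7.25 and 8.03 CPM in the IntS6-labelled and 16.9, 16.1 and 16.5 CPM in the IntS4-labelled libraries (-1.04, SE 0.12), against 7.12 to 7.57 CPM with B-gal dsRNA. These were the 2 called members of 14 amino acid and ATF4 response genes, and the median was -0.06.

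Notch pathway genes were lower in 4 of 15 tested and higher in 0, with a median of -0.24, beside 4.03% and 2.54% of all tested genes, and the count lower was 2 at a mean log2 CPM of at least 2. Besides Su(H), E(spl)mgamma-HLH, for a repressor that Notch induces, had 1.74, 2.58 and 3.03 CPM in the IntS6-labelled libraries and 8.25, 7.08 and 13.6 CPM in the IntS4-labelled libraries (log2 -1.98, SE 0.38, adjusted p = 0.0029). E(spl)m7-HLH, of the same family, was at 0.0658 to 0.224 CPM in the IntS6-labelled and 1.51 to 2.99 CPM in the IntS4-labelled libraries (-3.84, SE 0.52). E(spl)m7-HLH passed the filter through the IntS4-labelled libraries, so it could hardly be called higher. Psn, for the gamma-secretase subunit presenilin, had 49.9, 47.6 and 45.6 CPM in the IntS6-labelled and 66, 72 and 69.8 CPM in the IntS4-labelled libraries (-0.54, SE 0.09, adjusted p = 0.00068). In the ecdysone list Hr4, for a nuclear receptor, was higher, at 9.3, 11.6 and 9.22 CPM in the IntS6-labelled libraries against 2.33, 3.23 and 2.75 CPM in the IntS4-labelled libraries (log2 1.84, SE 0.27, adjusted p = 0.0002). MsrA, for methionine sulfoxide reductase, was lower (-1.57, SE 0.21).

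Markers of blood cell types differed singly, and the background for the counts of called markers is 6.57% of all tested genes. Of 11 plasmatocyte markers edgeR and DESeq2 called 0, with 7 under an unadjusted p of 0.05. With a replicate block 3 were higher and 1 lower, with the block in the fit of only the 2 groups 3 and 3, and the other settings called at most 1 in each direction. Their summed level was 936 to 1230 CPM in the IntS6-labelled and 941 to 1330 CPM in the IntS4-labelled libraries. The lamellocyte oxidase gene PPO3 (2R, 23064769 to 23067183) had 54.5, 59.4 and 70.2 CPM in the IntS6-labelled libraries, against 184, 205 and 237 CPM in the IntS4-labelled libraries and 5.18 to 6.3 CPM with B-gal dsRNA (log2 -1.77, SE 0.29, adjusted p = 0.00063). It was the only call among 5 lamellocyte markers, whose summed level was 488 to 568 CPM in the IntS6-labelled and 708 to 798 CPM in the IntS4-labelled libraries. The lamellocyte surface marker atilla was at 0.729 to 1.32 CPM in the IntS6-labelled and 0.303 to 1.51 CPM in the IntS4-labelled libraries. Of 3 tested crystal cell markers peb, a zinc finger factor, was lower (11.7, 6.71 and 9.61 CPM in the IntS6-labelled against 25.9, 22.4 and 26.1 CPM in the IntS4-labelled libraries, log2 -1.40, SE 0.25), while the defining crystal cell oxidase PPO1 had no count in any of the 6 libraries and the list summed to 10.4 to 15.8 CPM in the IntS6-labelled and 26 to 33.7 CPM in the IntS4-labelled libraries. gcm (2L, 9579498 to 9581745), a factor needed for haemocytes and glia, had 1.01, 0.746 and 1.45 CPM in the IntS6-labelled and 7.81, 6.62 and 9.64 CPM in the IntS4-labelled libraries (-2.90, SE 0.31, adjusted p = 1.4e-05). Of the other cell types' lists, the muscle gene sls (-1.06), the fat body gene NLaz (-1.27) and the neuronal gene elav (0.45) were called, each alone in its list. The summed level of the 8 muscle markers was 19.1 to 22.6 CPM in the IntS6-labelled and 39.1 to 42.2 CPM in the IntS4-labelled libraries, and that of the 6 fat body markers 6.85 to 10.8 CPM in IntS6-labelled and 19.4 to 23.7 CPM in IntS4-labelled libraries, led by sls and NLaz themselves. elav lost its call without A or B of either group (adjusted p up to 0.16). Among defining markers, Act88F of muscle, Lsp2 of fat body and VAChT of neurons had at most 0.0658, 0 and 0.0505 CPM in any of the 6 libraries, while futsch, cac, aub and AGO3 were present as given above. The part of such cells in the results was not tested.

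Mitosis and replication genes were called at shares of 9.38% and 8.7%, beside 6.57% of all tested genes. Incenp (2R, 7278467 to 7281795), a chromosomal passenger protein gene, had 76.6, 66.7 and 73.3 CPM in the IntS6-labelled libraries, against 153, 138 and 148 CPM in the IntS4-labelled libraries and 73.1, 64.5 and 62.2 CPM with B-gal dsRNA (log2 -1.02, SE 0.09, adjusted p = 4.3e-07). The IntS6-labelled libraries lay near the control for Incenp. The mitotic cyclin genes went the other way, CycB with 91.4, 98.1 and 101 CPM in the IntS6-labelled libraries and 75.4, 73.7 and 77.0 CPM in the IntS4-labelled libraries (0.36, SE 0.07, adjusted p = 0.004) and CycA at 0.41 (SE 0.09), so 2 of 32 mitosis genes were higher and 1 lower. In the replication list RnrS, for the small subunit of ribonucleotide reductase, had 109, 108 and 100 CPM in the IntS6-labelled libraries, against 190, 194 and 197 CPM in the IntS4-labelled libraries and 43.1 to 48.4 CPM with B-gal dsRNA (-0.88, SE 0.10, adjusted p = 9.8e-06). PCNA, the sliding clamp, was at -0.49 (SE 0.10), and these were the only calls among 23.

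Among RNA-processing and elongation genes the called shares were near the 6.57% of all tested genes, at 7.14% for pausing and elongation, 6.9% for the spliceosome and 6.25% for cleavage and polyadenylation. Slbp, for the protein that binds the histone mRNA stem-loop, had 26.6, 28.1 and 22.6 CPM in the IntS6-labelled libraries, against 44.2, 44.3 and 55.7 CPM in the IntS4-labelled libraries and 21.2 to 22.7 CPM with B-gal dsRNA (log2 -0.90, SE 0.10, adjusted p = 1.6e-05). Of 60 tested histone genes edgeR and DESeq2 called 0, with 2 under an unadjusted p of 0.05. The FACT subunit genes Ssrp (-0.80, SE 0.13, adjusted p = 0.0004) and dre4 (-0.28, SE 0.07, adjusted p = 0.023) were the calls among 28 pausing and elongation genes. dre4 lost its call without any 1 library other than IntS4 replicate C, without the filter and in the fit of only the 2 groups (adjusted p up to 0.18). Of 29 spliceosome genes, Brr2 (-0.43, SE 0.08) and Prp31 (-0.68, SE 0.16) were lower, Prp31 not without IntS6 replicate B or IntS4 replicate A or with only the 2 groups fitted (up to 0.1).

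Energy and protein turnover genes included most of the few lists with higher members alone. Of 9 fatty acid oxidation genes Mtpalpha, for the trifunctional protein, was higher with 63.3, 64.7 and 63.7 CPM in the IntS6-labelled libraries, against 47.8, 51.5 and 47.2 CPM in the IntS4-labelled libraries and 83.1 to 91.0 CPM with B-gal dsRNA (log2 0.39, SE 0.08, adjusted p = 0.0053). whd, for carnitine palmitoyltransferase, was at 0.73 (SE 0.20, adjusted p = 0.036), and lost its call without any 1 of the 6 libraries (up to 0.14). Of 36 proteasome genes Rpt1 had 89.6, 81.6 and 82.0 CPM in the IntS6-labelled and 61.1, 63.8 and 61.8 CPM in the IntS4-labelled libraries (0.44, SE 0.07, adjusted p = 0.00067). The called share was 5.56%, and with a replicate block 8 members were higher, or 7 in the fit of only the 2 groups. Rpn3 was at 0.29 (SE 0.07), not called without IntS6 replicate A, IntS4 replicate A or C or the filter (up to 0.099). Cytosolic ribosomal protein genes (85 tested, median -0.19), mitochondrial ribosomal protein genes (72, median 0.01) and vacuolar ATPase genes (17, median 0.05) had no call with edgeR or DESeq2, and 8, 1 and 1 of them were under an unadjusted p of 0.05. With a replicate block edgeR called 4 cytosolic ribosomal protein genes lower, and 5 in the fit of only the 2 groups. In all, 53 lists had at least 5 tested members: 20 held no called gene, 24 held lower genes alone, 4 higher genes alone and 5 both. Lists share members, and the background is 6.57% of all tested genes.

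Called genes differed from the rest in length and in their neighbours. The median gene span was 8307 bases for the higher and 3205 for the lower genes, beside 2693 for all tested, and the median exon length 3325, 2374 and 2075 bases. Protein-coding genes made up 99.5% of the higher and 93.1% of the lower genes, beside 92.7% of all tested. Of 85 tested antisense RNA genes 7 were lower and 0 higher (8.24%, beside 6.57% of all tested genes), with 1 lower at a mean log2 CPM of at least 2, 3 without IntS6 replicate A and 4 without IntS4 replicate B. Among the 7 were the adjacent asRNA:CR45929 (-2.69) and asRNA:CR43864 (-1.68) on the X chromosome. asRNA:CR45929, with at most 0.395 CPM in the IntS6-labelled libraries, passed the filter through the IntS4-labelled libraries. Another lower gene on the same strand within 5000 bases was found for 46 of the 349 lower genes (13.2%), beside 4.44% of all tested genes, and Prx6b with Prx6c is such a pair. For the higher genes, 22 of 220 (10.0%) had a higher neighbour, beside 3.12% of all tested. Overlapping entries on the same strand count as neighbours, so KP78a and KP78b, with identical counts, form such a pair, and shared reads were not set apart. The window runs from both ends of a gene, so longer genes reach more neighbours. These shares are descriptions and carry no test.

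The mts and Pp2A-29B comparisons with B-gal dsRNA share no library with the direct comparison, though they share the B-gal libraries with each other. With mts dsRNA 26.6% of all tested genes were called above B-gal dsRNA and 24.9% below it. Of the 220 genes higher in the IntS6-labelled libraries, 89 (40.5%) were called higher and 54 (24.5%) lower with mts dsRNA, and of the 349 lower genes 144 (41.3%) and 43 (12.3%). With Pp2A-29B dsRNA the shares of all tested genes were 21.0% and 17.9%, those of the 220 higher genes 99 (45.0%) and 45 (20.5%), and those of the 349 lower genes 150 (43.0%) and 25 (7.16%). Both sets were thus called higher in the PP2A libraries more often than the background, and the lower set was called lower less often, with no test of these differences. The B-gal mean was under 1 CPM for 27.3% of the higher and 43.8% of the lower genes, beside 15.4% of all tested. A gene so near 0 can hardly be called below B-gal dsRNA, so these shares are set in part by the control level and the filter. Across the 569 genes, the direct log2 fold change correlated with that of mts at r = -0.13 and with that of Pp2A-29B at r = -0.20 (rho -0.14 and -0.18), and across all 8666 at -0.08 and -0.12. These are correlations over genes, which are not independent.

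**Figure D5:**
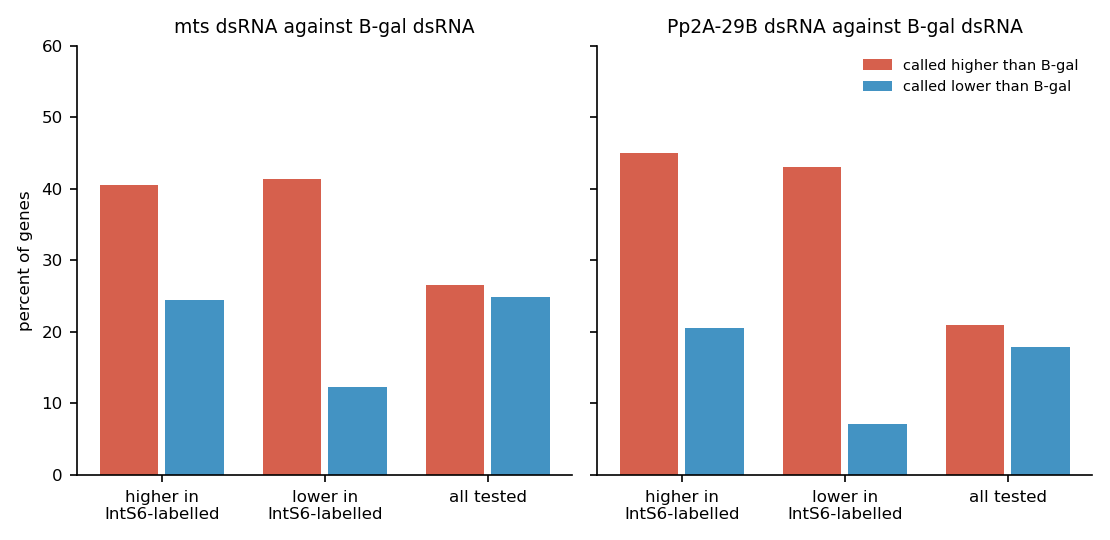
Percent of genes called above (red) and below (blue) B-gal dsRNA in the mts (left) and Pp2A-29B (right) libraries, for the 220 genes higher and the 349 lower in IntS6-labelled libraries and for all 8666 tested genes. Red bars of both called sets stand at 40.5 to 45.0%, above those of all tested genes at 26.6% and 21.0%.

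Single genes show both patterns. bowl, higher in the IntS6-labelled libraries, had a log2 fold change over B-gal dsRNA of 3.81 with mts and 2.83 with Pp2A-29B dsRNA, and Oat of 2.84 and 2.49. tutl, also higher in the IntS6-labelled libraries, was at -3.55 and -2.75. Among the lower genes, Su(H) was at 0.02 and 0.04 and Nep1 at 0.13 and 0.33, while PPO3 was at 4.63 and 3.2 and Atg18b at 2.63 and 1.85.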

How the data were processed

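RNA of 18 DL1 libraries was depleted of ribosomal RNA and sequenced strand-specifically, per the labels' protocols. The deposited table holds estimated counts, not normalised. Of its values 90.1% lay within 0.005 of a whole number, and all were rounded here. Trimmomatic 0.39, featureCounts and the builds dm6 and BDGP6 are named in the submitters' processing notes, with the aligner not given in the sources used here. Positions and symbols come from the Ensembl gene models for BDGP6, which named 17626 of 17753 entries. Fractional counts make near-identical copies and overlapping genes on 1 strand uncertain.

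Differences were tested with edgeR 4.0.16 (R 4.3.3): TMM factors, filterByExpr with a count minimum of 10, and the two-sided quasi-likelihood F test in a single model of 6 groups (12 residual degrees of freedom, common BCV 0.131). The 33 tested ribosomal RNA entries stayed in the fit and none was called. Adjusted p is Benjamini-Hochberg over all genes tested, and genes under 0.05 are called. Each printed adjusted p is from this test unless an alternative is named. CPM use TMM-scaled totals, ribosomal RNA included. Intervals of fold changes are 95% intervals of the fit; counting intervals and bounds (3 counts over a group) cover counting error only. The procedure was tested on simulated counts. Alternatives were another scaling, DESeq2 1.42.0, other filters, the 2 groups alone, removal of ribosomal RNA, a replicate block, and leaving out each library.

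Named genes are the 4 targeted genes, the 15 highest and 15 lowest called genes (mean log2 CPM from 2 upward, libraries not overlapping), all tested genes of the Integrator, PP2A and reported target lists, and up to 3 called genes with the smallest adjusted p of each other list (up to 6 near snRNA genes). The comparison, the members and the 59 lists were chosen with earlier results of these data known.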

Additional observations from a re-analysis of the deposited data

Results flagged for a closer look

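Only 6 genes were called in opposite directions against B-gal dsRNA in the 2 labelled groups and also differed between the groups in the direct test. Such a difference is the reason they are listed here, and the comparisons with B-gal share its libraries. fus, for a splicing regulator, had 6.33, 5.02 and 4.87 CPM in the IntS6-labelled libraries, against 1.82, 1.47 and 1.57 CPM in the IntS4-labelled libraries and 2.87, 3.58 and 4.01 CPM with B-gal dsRNA. Its direct log2 difference was 1.75. CG5946 had 43.7, 46.2 and 40.5 CPM in the IntS6-labelled libraries, against 26.7, 27.3 and 29.1 CPM in the IntS4-labelled libraries and 33.8, 35.2 and 33.6 CPM with B-gal dsRNA (0.65). Mpcp1, for a mitochondrial phosphate carrier (0.90), and the tetraspanin gene Tsp96F (0.70) were likewise above B-gal in IntS6-labelled and below it in IntS4-labelled libraries. Tgi (-0.56), for a cofactor that represses Hippo targets, was below B-gal in IntS6-labelled and above it in IntS4-labelled libraries, at 42.1, 43.3 and 46.8 CPM in IntS6-labelled against 65.7, 60.1 and 68.6 CPM in IntS4-labelled libraries. CG43107 (fitted value -5.40) had 2 counts in the IntS6-labelled and 103 in the IntS4-labelled libraries, a ratio of IntS4-labelled over IntS6-labelled counts of 50.5 (95% counting interval 13.6 to 423), and the fitted value depends on the prior count.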

How the results depend on the processing

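No called gene named by the rule changed direction in any of 14 alternative settings, and 65 of the 92 kept their call in all of their settings. Total calls were 569, and 572 with other size factors, 645 with DESeq2, 656 without the filter, 394 at a mean log2 CPM of at least 2, 667 with only the 2 groups and 576 with ribosomal RNA removed first. Leaving out 1 library gave 386 to 531 calls, of which 113 to 216 were higher and 262 to 315 lower. The share of higher genes among calls, 38.7%, was 29.3% without IntS4 replicate B and 47.9% with a block in the fit of the 2 groups. Of the genes near snRNA genes 5 were lower in each of these settings and with the replicate block, except at a mean log2 CPM of at least 2, where the count was 4.

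Same-letter libraries of the 2 groups correlated, as deviations from group means, at 0.40, 0.07 and 0.32 in sets A, B and C. Libraries of different letters correlated at -0.50 to 0.29. The second principal component of the 6 libraries held 21.5% of the variance and set the C libraries apart from the others. It placed IntS6 replicate C at -9.8 and IntS4 replicate C at -13.8, and the A and B libraries at 5.5 to 6.3. The main fit did not pair the samples by letter, so differences shared by a set stayed in its spread. No test of a set effect was run. With the replicate block 943 genes were called, 401 higher and 542 lower, with all 569 calls of the main fit among them. With the block in the fit of only the 2 groups 1083 were called, of which 519 were higher and 564 lower. The labels give no batch besides the letters. At 4370742 to 6325688 counts outside ribosomal RNA, the smallest difference that could be called was not measured, and calls such as those of Kal1, Mkp3, whd and dre4 depend on single libraries.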

Other observations

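Immune, metabolic and matrix genes outside the accounts above were called singly, beside 6.57% of all tested genes. PGRP-SA, for a receptor of the Toll branch of immunity, had 21.5, 21.2 and 25.3 CPM in the IntS6-labelled libraries and 11.2, 12.7 and 16.2 CPM in the IntS4-labelled libraries (log2 0.76, SE 0.21, adjusted p = 0.037). The antimicrobial peptide gene CecA1 had 30.8, 32.0 and 26.2 CPM in the IntS6-labelled and 41.8, 48.3 and 51.8 CPM in the IntS4-labelled libraries (-0.67, SE 0.15, adjusted p = 0.0082), so these immune genes moved in opposite directions. PGRP-SA lost its call without any 1 library other than IntS4 replicate C (adjusted p up to 0.18), and CecA1 without IntS6 replicate C (up to 0.051). The giant matrix protein gene dpy had 0.841, 1.29 and 0.987 CPM in the IntS6-labelled and 7.66, 6.77 and 7.28 CPM in the IntS4-labelled libraries (-2.80, SE 0.32), and mfas was at -0.60 (not called without any 1 library other than IntS4 replicate B, up to 0.1). The glutamyl-prolyl-tRNA synthetase gene GluProRS had 129, 130 and 126 CPM in the IntS6-labelled and 166, 169 and 160 CPM in the IntS4-labelled libraries (-0.36, SE 0.07, adjusted p = 0.0041), the only call among 33 synthetase genes. Cyt-c1 (0.46) was the only call among 67 genes of oxidative phosphorylation, and was not called without IntS6 replicate B or C or IntS4 replicate A or C (up to 0.088). Of 13 transcripts of the mitochondrial genome and 135 small nucleolar RNAs edgeR and DESeq2 called 0, with 0 and 4 under an unadjusted p of 0.05, and without the filter or without IntS4 replicate C edgeR called 1 small nucleolar RNA.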
